A study of Mus musculus with 9 samples.

Results

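The aryl hydrocarbon receptor pathway was followed here through 6 genes, *Ahr*, *Ahrr*, *Arnt*, *Cyp1a1*, *Cyp1b1* and *Tiparp*, in mouse preosteoblasts exposed to low-intensity pulsed ultrasound (LIPUS). All probe sets that the annotation of the array assigns to these symbols were taken, which gave 15 of the 45037 probe sets compared and 6 of the 18193 genes named by them. None of the 15 was shared with another gene symbol, and none was removed for a low signal. *Ahr* was chosen by its higher level at 24 h after LIPUS, which was known, and the other genes because they act with it. The 24 h values of these 6 genes are therefore given as a description, without p-values, and where probe sets past the threshold are counted at 24 h, the count is a description too.

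MC3T3-E1 is an established cell line with a fibroblast-like form, derived from the calvaria of newborn C57BL/6 mice. All cells had been grown for 14 days with ascorbic acid and β-glycerophosphate, then replated and kept for 24 h before the exposure. Transcripts were measured on Affymetrix GeneChip mouse arrays in cells cultured for 24 h after LIPUS (3 arrays), in cells cultured for 6 h after LIPUS (3 arrays) and in mock-treated control cells (3 arrays). The LIPUS groups received 30 mW/cm2 at 1.5 MHz for 20 min through the bottom of the dish. Each group has replicates 1, 2 and 3. The study speaks of separate experiments, and arrays with 1 replicate number were treated here as 1 experiment, which the labels do not state. The p-values measure the spread between these arrays. The time for which the mock control was cultured is not given in the sources used here, so the effect of LIPUS and that of time in culture cannot be told apart in a comparison with the control. The values are log2 signals from RMA (robust multi-array averaging of the probes of a set), in which 1 unit is a change of 2-fold, and a log2 ratio here is the LIPUS value minus the control value of the same experiment. A probe set counted as changed at a Benjamini-Hochberg adjusted p under 0.05 in limma, fitted over all probe sets with the experiment as a block.

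The aryl hydrocarbon receptor is a transcription factor of the basic helix-loop-helix PAS family that waits in the cytosol in a complex with HSP90 chaperones. When a ligand binds, such as a dioxin, a polycyclic hydrocarbon or a tryptophan metabolite, the receptor moves to the nucleus, pairs with ARNT and binds xenobiotic response elements, whose core is GCGTG. Genes of the cytochrome P450 family 1, *Tiparp* and *Ahrr* are classical targets, and the proteins of the last 2 damp the receptor in turn. Dioxins are known to hinder the differentiation of osteoblasts in culture.

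The promoters of the genes described as targets and of the partner *Arnt* are shown because the core element can be seen in them. RefSeq promoter windows of 300 bases (build GRCm38.p6), from 250 bases before to 50 bases after the annotated start, were at hand for 5 of the 6 genes, all but *Ahr*, which lies at chr12:35497979-35534989. They are written 5′ to 3′ on the strand of the gene, and capitals mark the core, GCGTG, or CACGC where the core lies on the opposite strand. The windows are chr13:74292282-74292581 (minus strand) for *Ahrr*, chr3:65528197-65528496 (plus strand) for *Tiparp*, chr9:57697363-57697662 (plus strand) for *Cyp1a1*, chr17:79715012-79715311 (minus strand) for *Cyp1b1* and chr3:95434140-95434439 (plus strand) for *Arnt*.
Ahrr promoter: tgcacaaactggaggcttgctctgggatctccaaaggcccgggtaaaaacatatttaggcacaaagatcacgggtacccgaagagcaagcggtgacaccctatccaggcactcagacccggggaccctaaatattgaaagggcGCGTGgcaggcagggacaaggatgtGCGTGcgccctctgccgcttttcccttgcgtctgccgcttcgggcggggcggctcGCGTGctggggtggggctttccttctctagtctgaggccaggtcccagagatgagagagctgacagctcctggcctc
Tiparp promoter: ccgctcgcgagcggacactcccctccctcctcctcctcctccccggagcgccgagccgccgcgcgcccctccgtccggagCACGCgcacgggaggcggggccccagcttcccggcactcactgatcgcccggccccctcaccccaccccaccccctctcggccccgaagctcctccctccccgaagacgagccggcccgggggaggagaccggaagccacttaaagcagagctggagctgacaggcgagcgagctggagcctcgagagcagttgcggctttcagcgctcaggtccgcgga
Cyp1a1 promoter: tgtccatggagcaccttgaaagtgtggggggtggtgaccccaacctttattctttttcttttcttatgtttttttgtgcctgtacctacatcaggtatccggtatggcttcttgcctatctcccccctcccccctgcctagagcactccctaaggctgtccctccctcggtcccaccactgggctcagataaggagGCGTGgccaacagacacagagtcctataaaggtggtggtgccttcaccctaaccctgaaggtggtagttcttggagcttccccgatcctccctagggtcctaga
Cyp1b1 promoter: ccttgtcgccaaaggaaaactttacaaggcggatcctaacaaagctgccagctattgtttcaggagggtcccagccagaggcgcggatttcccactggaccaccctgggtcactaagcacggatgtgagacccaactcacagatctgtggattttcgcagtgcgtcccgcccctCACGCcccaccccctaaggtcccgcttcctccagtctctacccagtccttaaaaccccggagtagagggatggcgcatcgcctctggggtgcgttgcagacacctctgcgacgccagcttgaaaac
Arnt promoter: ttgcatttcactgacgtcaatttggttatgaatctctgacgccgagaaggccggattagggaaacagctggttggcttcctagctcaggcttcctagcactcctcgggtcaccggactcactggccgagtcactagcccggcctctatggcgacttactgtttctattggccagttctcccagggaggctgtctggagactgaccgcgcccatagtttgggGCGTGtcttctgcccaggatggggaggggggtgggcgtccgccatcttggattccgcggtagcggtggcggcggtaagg
Each of the 5 windows held the core at least once on either strand, and so did 32.4% of the 32851 windows of this length in the RefSeq table. *Ahrr* held 3 cores, with their first bases at -107, -82 and -27 relative to the start, a number that 3.91% of all windows reached or passed. The core of *Ahrr* nearest the start was also the only match among the 5 windows to the longer form TNGCGTG, in which N is any base, and 5.07% of all windows held that form. *Tiparp* and *Cyp1b1* each had 1 core on the opposite strand, at -170 and -76. *Cyp1a1* and *Arnt* each had 1 core on their own strand, at -54 and -29. A match of these letters describes the window only, and binding was not measured.

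*Ahr*, which encodes the receptor itself, had the largest difference of the 6 genes at 24 h. Its stronger probe set, 1422631_at, had log2 signals of 9.58, 9.91 and 9.54 at 24 h, 8.85, 9.24 and 8.85 at 6 h, and 8.70, 9.05 and 8.88 in control cells (experiments 1, 2 and 3). The 24 h arrays all lay above the 6 h and control arrays, while those of 6 h and control overlapped. The log2 ratios to control at 24 h were 0.89, 0.86 and 0.65, a fold of 1.74 ± 0.15 (SD, n = 3) and a fitted log2 difference of 0.80 ± 0.05 (SE). Between 24 h and 6 h the log2 ratios were 0.74, 0.67 and 0.68, closer to each other than those to control. At 6 h the log2 ratios to control were 0.15, 0.19 and -0.03. Their fitted value was 0.10 (95% interval -0.02 to 0.22), which did not pass the test (limma adjusted p = 0.959, 0.398 to 1 over the alternatives). *Ahr* was the only member that exceeded 1.5-fold in each of the 3 experiments at 24 h, a rule met upward by 0.0955% of all probe sets.

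The second probe set of *Ahr*, 1450695_at, showed none of this. Its log2 signals were 4.33, 3.70 and 4.23 at 24 h, 4.37, 3.70 and 4.23 at 6 h, and 4.23, 3.70 and 4.23 in control cells. In experiments 2 and 3 it had a single value on all 3 arrays, so its ratios there were 0. Both probe sets carry the same source sequence in the annotation of the array. The mean signal of 1450695_at ranked at the 35.4th percentile of all probe sets, against the 87.4th for 1422631_at.

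Such equal values were frequent in the deposited data. In experiments 1, 2 and 3, the 24 h and control values were identical for 1.26%, 48.4% and 31.9% of all probe sets, and the 6 h and control values for 1.72%, 49.5% and 43.2%. Of the 15 probe sets described here, 0, 8 and 2 had identical values at 24 h and in control, and 2, 5 and 4 at 6 h and in control. Ratios of exactly 0 below come from these pairs, and their part in the spread of the experiments was not tested.

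**Figure D1:**
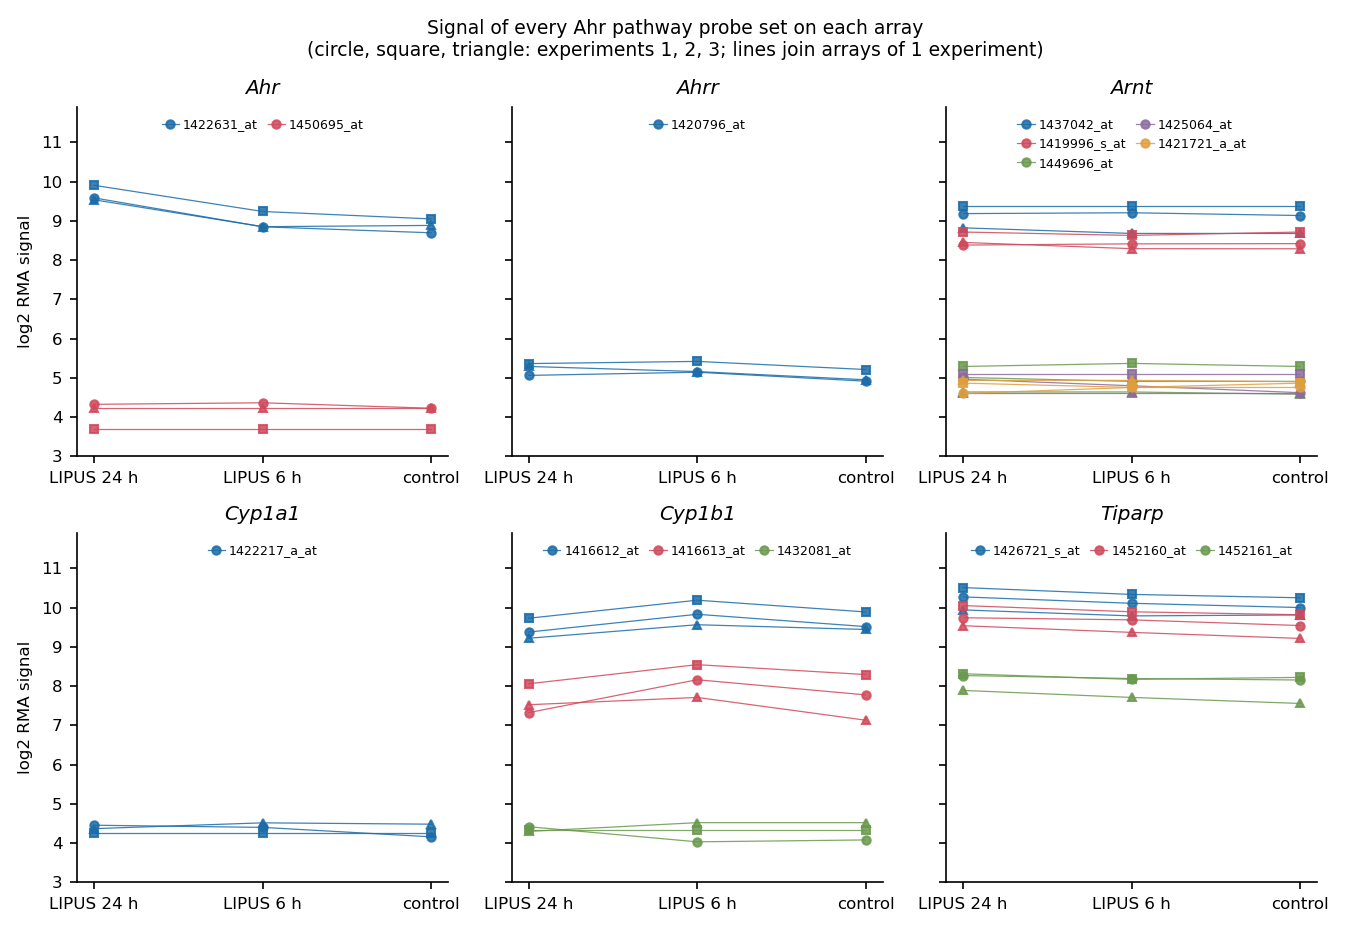
Log2 RMA signal (vertical axes) of the 15 probe sets of the 6 genes on the 9 arrays, by group (horizontal axes), with 1 line for each experiment and probe set. *Ahr* 1422631_at lay at 9.54 to 9.91 at 24 h, above 8.85 to 9.24 at 6 h and 8.70 to 9.05 in control cells, while *Cyp1b1* 1416612_at was highest at 6 h in each experiment.

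*Arnt*, the partner without which the receptor does not bind its element, stayed close to the control. Its strongest probe set, 1437042_at, had log2 signals of 9.18, 9.37 and 8.82 at 24 h, 9.21, 9.37 and 8.68 at 6 h, and 9.14, 9.37 and 8.68 in control cells. Over its 5 probe sets the fitted log2 differences at 24 h ran from -0.04 to 0.11. The highest, of 1425064_at, came from experiment 1 alone, with a log2 ratio of 0.34 there and 0 in the other two. At 6 h the 5 values ran from -0.03 to 0.06, and none passed the test (limma adjusted p = 0.959 to 0.974). For 1437042_at the 95% interval of the 6 h difference was -0.07 to 0.12. The 24 h difference of *Ahr* thus had no counterpart of like size in any probe set of *Arnt*.

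*Tiparp* encodes a mono-ADP-ribosyltransferase that is induced by the receptor and modifies it, and its 3 probe sets were all above control in every experiment at 24 h. For 1426721_s_at, the log2 signals were 10.27, 10.51 and 9.94 at 24 h, 10.11, 10.34 and 9.79 at 6 h, and 10.00, 10.25 and 9.81 in control cells. The ranges of the 3 groups overlapped, since the experiments differed more from each other than the groups did, and the difference shows only within an experiment. The log2 ratios to control were 0.27, 0.26 and 0.13, a fold of 1.17 ± 0.06 (SD, n = 3). The second, 1452160_at, had log2 ratios of 0.20, 0.23 and 0.32, and the third, 1452161_at, of 0.11, 0.09 and 0.33. Experiment 3 thus had the smallest of the 3 ratios for the first of these probe sets and the largest for the others, although all 3 carry the same source sequence in the annotation. The fitted log2 differences at 24 h were 0.22 ± 0.03, 0.25 ± 0.03 and 0.18 ± 0.05 (SE). At 6 h they were 0.06, 0.13 and 0.05, and none passed the test (limma adjusted p = 0.959 each). Between 24 h and 6 h all 3 probe sets were higher at 24 h in each experiment, by 0.16, 0.13 and 0.13.

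*Ahrr*, the repressor that competes with the receptor for ARNT, was a little above control at both times. Its probe set, 1420796_at, had log2 signals of 5.06, 5.36 and 5.29 at 24 h, 5.14, 5.42 and 5.16 at 6 h, and 4.92, 5.21 and 4.95 in control cells. Within every experiment both LIPUS arrays were above the control array. The log2 ratios at 24 h were 0.15, 0.15 and 0.34, with a fitted difference of 0.21 ± 0.06 (SE). Those at 6 h were 0.23, 0.21 and 0.21, close to each other, with a fitted difference of 0.21 (95% interval 0.07 to 0.36) that did not pass the test over all probe sets (limma adjusted p = 0.959). Between 24 h and 6 h its log2 ratios disagreed in sign, at -0.08, -0.06 and 0.13, with a fitted difference of -0.00 ± 0.06 (SE). None of the ratios was near the 0.67 to 0.74 of *Ahr*. Whether *Ahrr* had a smaller step between the times was not tested. Its mean signal ranked at the 52.5th percentile, below the limit of 5.84 on the log2 scale that bounds the upper 40% of probe sets.

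*Cyp1a1* and *Cyp1b1* encode P450 enzymes that oxidize aromatic hydrocarbons and, for *Cyp1b1*, also oestradiol and retinoids. *Cyp1a1*, the most used readout of the receptor, had a dim signal and no steady direction. Its log2 signals were 4.46, 4.26 and 4.37 at 24 h, 4.40, 4.26 and 4.52 at 6 h, and 4.16, 4.26 and 4.48 in control cells. The log2 ratios at 24 h were 0.30, 0.00 and -0.11, and those at 6 h were 0.24, 0.00 and 0.03. The 6 h difference was 0.09 (95% interval -0.11 to 0.29, limma adjusted p = 0.959). Its mean signal stood at percentile 40.2 of all probe sets, and the interval leaves room for a difference of that size in either direction.

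*Cyp1b1* was highest at 6 h. The strongest probe set, 1416612_at, had log2 signals of 9.38, 9.73 and 9.22 at 24 h, 9.83, 10.19 and 9.56 at 6 h, and 9.52, 9.89 and 9.44 in control cells. In each experiment the 6 h array was the highest and the 24 h array the lowest, though the ranges of the groups overlapped. At 24 h the log2 ratios to control were -0.14, -0.16 and -0.22, a fold of 0.886 ± 0.027 (SD, n = 3). At 6 h they were 0.31, 0.30 and 0.12, a fold of 1.19 ± 0.09 (SD, n = 3). The fitted 6 h difference of 0.24 (95% interval 0.15 to 0.34) did not pass the test over all probe sets (limma adjusted p = 0.959). Without experiment 3 the 6 h difference was 0.31 and passed (limma adjusted p = 0.0467), and the adjusted p ranged up to 1 over the alternatives. Between 24 h and 6 h the log2 ratios were -0.45, -0.46 and -0.34, opposite in sign to those of *Ahr* in the same arrays.

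The second probe set of *Cyp1b1*, 1416613_at, had log2 signals of 7.33, 8.06 and 7.53 at 24 h, 8.16, 8.55 and 7.71 at 6 h, and 7.78, 8.29 and 7.13 in control cells. It too was highest at 6 h in every experiment, with log2 ratios to control of 0.39, 0.25 and 0.58 (fitted 0.41, 95% interval 0.06 to 0.75, limma adjusted p = 0.959). At 24 h its ratios to control disagreed in sign, at -0.45, -0.23 and 0.39. The third, 1432081_at, was dim and had fitted differences of 0.04 at 24 h and -0.02 at 6 h.

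Counted over the 15 probe sets, 3 passed the threshold upward at 24 h against control, 1422631_at of *Ahr* and 1426721_s_at and 1452160_at of *Tiparp*, and 0 downward. Over all probe sets 1.80% passed upward and 0.933% downward. This comparison chose *Ahr*, so nothing is read from the count. The count was 0 without the block, with only the 6 arrays of the 2 groups, without experiment 1 or experiment 2 and by the test named in the study's methods, and it was 1 without the intensity trend. At 6 h against control 0 of 15 passed, as did 0.00% of all probe sets in limma. At an unadjusted p under 0.05 there were 4 of 15 at 6 h in limma (1575 of all probe sets) and 0 of 15 by the test named in the study's methods, run here without pairing. Between 24 h and 6 h, 1 of 15 passed upward (*Ahr* 1422631_at, against 1.14% of all probe sets) and 1 downward (*Cyp1b1* 1416612_at, against 0.879%). These use the 24 h arrays that chose *Ahr*, so nothing is read from them either, and both were lost without the block, with 6 arrays, without experiment 1 or experiment 2 and by the methods' test. Regardless of the test, 5 of the 15 were above control in all 3 experiments at 24 h and 1 below, where 10.3% and 6.84% of all probe sets were. Those above were *Ahr* 1422631_at, the probe set of *Ahrr* and all 3 of *Tiparp*, which share a source sequence. *Ahr* was chosen by this level, so nothing is read from this count either. At 6 h 4 of 15 were above control in all experiments and 0 below, where 6.48% and 4.24% of all probe sets were. The median log2 difference of the 15 was 0.06 at 24 h and 0.06 at 6 h, beside 0.00 for all probe sets at both.

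**Figure D2:**
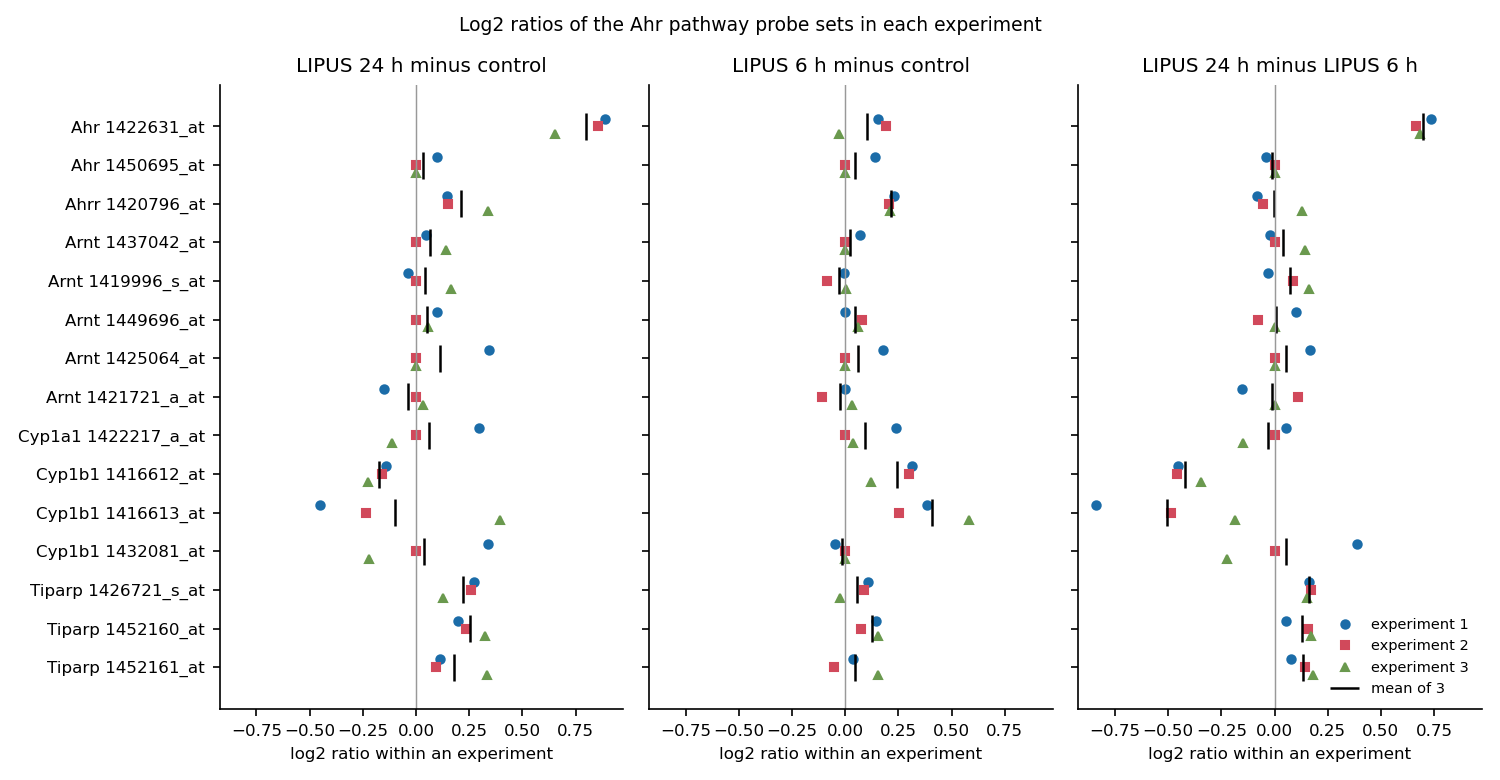
Log2 ratios (horizontal axes) of the 15 probe sets (rows) in each of the 3 experiments, for 24 h minus control, 6 h minus control and 24 h minus 6 h, with the mean of the 3 as a bar. *Ahr* 1422631_at stands at 0.65 to 0.89 at 24 h, the 3 *Tiparp* probe sets lie right of 0 in every experiment there, and *Cyp1b1* 1416612_at lies left of 0 at 24 h and right of 0 at 6 h.

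Whether the targets followed the level of *Ahr* can be read within the experiments. *Tiparp* moved as *Ahr* did in direction, above 6 h and control at 24 h in every experiment, with differences of 0.18 to 0.25 against control where *Ahr* had 0.80. Its probe set 1452160_at was above control in every experiment at 6 h already, by 0.15, 0.08 and 0.15. *Ahr* had 0.15, 0.19 and -0.03 there, and the other *Tiparp* probe sets also had no common direction at 6 h. *Ahrr* was above control at both times in every experiment, by a mean of 0.21 at each, with no common direction between the times. *Cyp1b1* (1416612_at) was below control at 24 h, when *Ahr* was highest, and above control at 6 h, and *Cyp1a1* had no common direction. Across experiments, the *Ahr* ratio at 24 h was lowest in experiment 3, which held the highest ratios of *Ahrr*, of 1452160_at and of 1452161_at and the lowest of 1426721_s_at. The 4 genes described as targets thus fell into more than one pattern, and as the same 24 h and control arrays enter every ratio, no correlation was computed. Protein levels, the location of the receptor and its ligands were not measured.

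A measure of likeness was computed as the mean absolute difference between the log2 ratios of a probe set and those of *Ahr* 1422631_at over the 6 LIPUS arrays. All these ratios share the control arrays, and the 24 h values of *Ahr* chose it, so the measure is a description only. A gene with no change on any LIPUS array would have a difference of 0.462. Among the 34944 other probe sets with 1 symbol, *Tiparp* ranked 530, 638 and 3924 by closeness (differences of 0.316, 0.325 and 0.400), and *Ahrr* ranked 1083 (0.349). The 2 stronger probe sets of *Cyp1b1* ranked 30994 and 33255 (0.557 and 0.600), further away than a gene with no change. *Cyp1a1* ranked 7330 (0.426) and the *Arnt* probe sets ranked 2542 to 24772 (0.383 to 0.505), around the value of a gene with no change. The nearest of *Arnt*, 1425064_at, was thus closer than *Tiparp* 1452161_at, although its ratios were 0 in experiments 2 and 3. The second probe set of *Ahr* itself, 1450695_at, ranked 6643 (0.422). The 6 nearest genes were *Gbp6*, an interferon-induced GTPase (0.0856), *Ecrg4*, which encodes a secreted peptide precursor (0.101), *Gdpd2*, a glycerophosphodiester phosphodiesterase (0.107), *Matn4*, a matrilin of the extracellular matrix (0.108), *Lum*, the proteoglycan lumican (0.110), and *Cmbl*, a hydrolase (0.110). *Lum* had log2 ratios of 0.78, 0.72 and 0.63 at 24 h and of 0.05, -0.01 and 0.05 at 6 h. *Matn4* had 0.74, 0.71 and 0.69 at 24 h and -0.02, 0.14 and 0.07 at 6 h. The probe sets of *Gbp6*, *Ecrg4*, *Matn4* and *Lum* were, like that of *Ahr*, picked by the study on these arrays for their higher 24 h level, the first under another symbol of the same family. For *Ahr*, *Matn4* and *Lum* the study also reported significantly higher levels after LIPUS by real-time quantitative PCR. With the dimmer probe set of *Ahr* as the profile, 0 of these 6 genes were among the 6 nearest.

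The genes around the receptor were described through 7 lists that hold none of the 6 genes. Of 87 genes listed, 75 had a probe set with their symbol alone, 158 probe sets in all. At 24 h against control 2 of the 158 rose (1.27%, beside 1.80% of all probe sets) and 8 fell (5.06%, beside 0.933%), with a median log2 difference of 0.00, as over all probe sets. The 2 that rose were of 2 genes and the 8 that fell of 6. At 6 h against control 0 of 158 passed in limma, as did 0.00% of all probe sets. At an unadjusted p under 0.05 there were 10 of 158 in limma, beside 1575 of all 45037, and 0 by the methods' test. At 24 h against control with limma, 0 passed when the block was dropped, when experiment 1 or experiment 2 was left out, or when only the 6 arrays of the 2 groups were fitted. Without experiment 3, 14 passed, where 1439 of all 45037 did. The 8 genes named below as changed kept their direction under all 9 alternatives. The difference of *Slc7a5*, for example, was 0.32 to 0.33 when an experiment was left out, that of *Nqo1* -0.63 to -0.53 and that of *Bmal1* -0.58 to -0.43.

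Other known targets of the receptor split in both directions. Of 17 measured genes of 21 (24 probe sets), 2 rose and 1 fell at 24 h, and the median log2 difference was -0.04. *Nqo1*, a quinone reductase that also answers to the antioxidant factor NRF2, had log2 signals of 8.95, 9.35 and 8.99 at 24 h, 9.66, 9.97 and 9.54 at 6 h, and 9.59, 9.97 and 9.44 in control cells (1423627_at). All 3 of its 24 h arrays were below every 6 h and control array. Its log2 difference at 24 h was -0.57 ± 0.04 (SE, limma adjusted p = 0.00142), and at 6 h it was 0.06. The study chose *Nqo1* on these arrays for its lower level, so it is not independent evidence. *Aldh3a1*, an aldehyde dehydrogenase, had log2 signals of 8.58, 8.66 and 8.34 at 24 h, 8.38, 8.39 and 7.97 at 6 h, and 8.20, 8.30 and 7.69 in control cells (1418752_at). All 3 of its 24 h arrays were above every control array, and the difference at 24 h was 0.47 ± 0.06 (SE, limma adjusted p = 0.0105). The 6 h value was between, at 0.19 (limma adjusted p = 0.959). *Slc7a5*, a transporter of large neutral amino acids, tryptophan among them, had nearly equal log2 ratios of 0.32, 0.34 and 0.32 at 24 h (limma adjusted p = 0.00123), and its 6 h difference was -0.00. The other 14 measured genes of this list did not pass. Some of them were dim, such as *Serpinb2*, *Gsta2* and *Cyp1a2* (mean log2 signals of 2.32, 2.75 and 3.51). Others were bright, such as *Abcg2* and *Xdh* (10.26 and 9.65). Whether changes among the dim ones would be recovered was not tested.

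**Figure D3:**
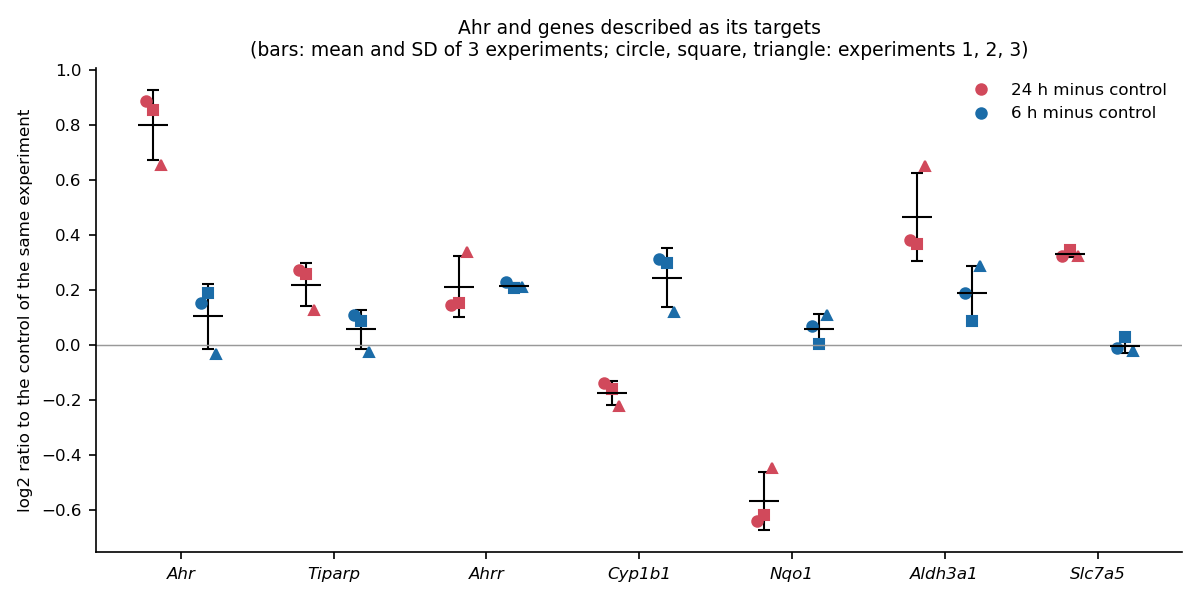
Log2 ratio to the control of the same experiment (vertical axis) for *Ahr* (1422631_at), *Tiparp* (1426721_s_at), *Ahrr*, *Cyp1b1* (1416612_at) and 3 further genes described as targets (horizontal axis), at 24 h and at 6 h, with mean and SD of 3 experiments. At 24 h *Ahr* averaged 0.80 and *Aldh3a1* 0.47, while *Nqo1* averaged -0.57 and *Cyp1b1* -0.17.

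In the cytosolic complex of the receptor, 2 of 5 genes could be read (7 probe sets), with 0 rising and 1 falling and a median of -0.13. Most of these probe sets are of *Hsp90aa1*, and with only the brightest probe set of each gene the median was -0.03. The probe set that fell was 1426645_at of *Hsp90aa1*, the inducible form of the chaperone HSP90, at -0.26 ± 0.04 (SE, limma adjusted p = 0.0181). The other 2 bright probe sets of *Hsp90aa1* had log2 differences of -0.22 and -0.13 that did not pass (limma adjusted p = 0.0943 and 0.105). *Src*, a kinase bound to the complex and the only other gene read here, had 0.06 and -0.14, and neither passed (limma adjusted p = 0.668 and 0.608). Among coregulators and turnover factors, 12 of 14 genes were measured (32 probe sets, median -0.00). The 2 probe sets that passed were both of *Stub1*, the ubiquitin ligase CHIP that acts on clients of HSP90, and both fell, by 0.21 and by 0.17 on the log2 scale (limma adjusted p = 0.0136 and 0.0377).

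The relatives of the receptor in the bHLH-PAS family were all measured (13 genes, 35 probe sets, median 0.03), and 1 probe set passed. *Bmal1*, the partner of CLOCK in the circadian clock, had log2 signals of 7.14, 7.39 and 7.35 at 24 h, 7.77, 7.92 and 7.65 at 6 h, and 7.79, 7.90 and 7.70 in control cells (1425099_a_at). Its 24 h arrays were below all others, by -0.50 ± 0.07 against control (SE, limma adjusted p = 0.0117), and its second, dimmer probe set had 0.03. *Npas3*, a factor of neurons, was looked at after its values were seen, because 3 of its 4 probe sets had the 3 largest upward log2 differences of this list. They were 0.56, 0.52 and 0.36 and did not pass (limma adjusted p = 0.0906, 0.0757 and 0.0838). *Hif1a*, which shares ARNT as partner and was also picked out after its values were seen, had 4 probe sets between 0.03 and 0.18, none of which passed (limma adjusted p = 0.351 to 0.862).

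The enzymes that make and use tryptophan metabolites, some of which are ligands of the receptor, were all measured (11 genes, 20 probe sets, median -0.03). Of these probe sets 0 passed in limma, 1 at an unadjusted p under 0.05 and 0 by the methods' test. Only that of *Kyat3* had a mean log2 signal (7.58) above the limit of 5.84 given for *Ahrr*. Those of *Tdo2* and *Afmid* named next had 2.50 and 4.98. Whether changes among such dim probe sets would be recovered was not tested. The 2 largest differences in size were those of *Tdo2*, tryptophan dioxygenase, at -0.20 (limma adjusted p = 0.427) and of *Afmid*, which hydrolyses formylkynurenine, at -0.20 (limma adjusted p = 0.395). Of the electron donors and phase II partners of P450 enzymes, 8 of 10 genes were measured (16 probe sets, median 0.03). The 2 that passed were both of *Cyb5r3*, which reduces cytochrome b5, at -0.17 and -0.14 (limma adjusted p = 0.0151 and 0.0231). Of 13 mono-ADP-ribosyltransferases and related genes 12 were measured (24 probe sets, median 0.00). Only *Parp3*, an enzyme of DNA break repair, passed, at -0.26 ± 0.03 (SE, limma adjusted p = 0.00451), opposite in sign to *Tiparp*.

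**Figure D4:**
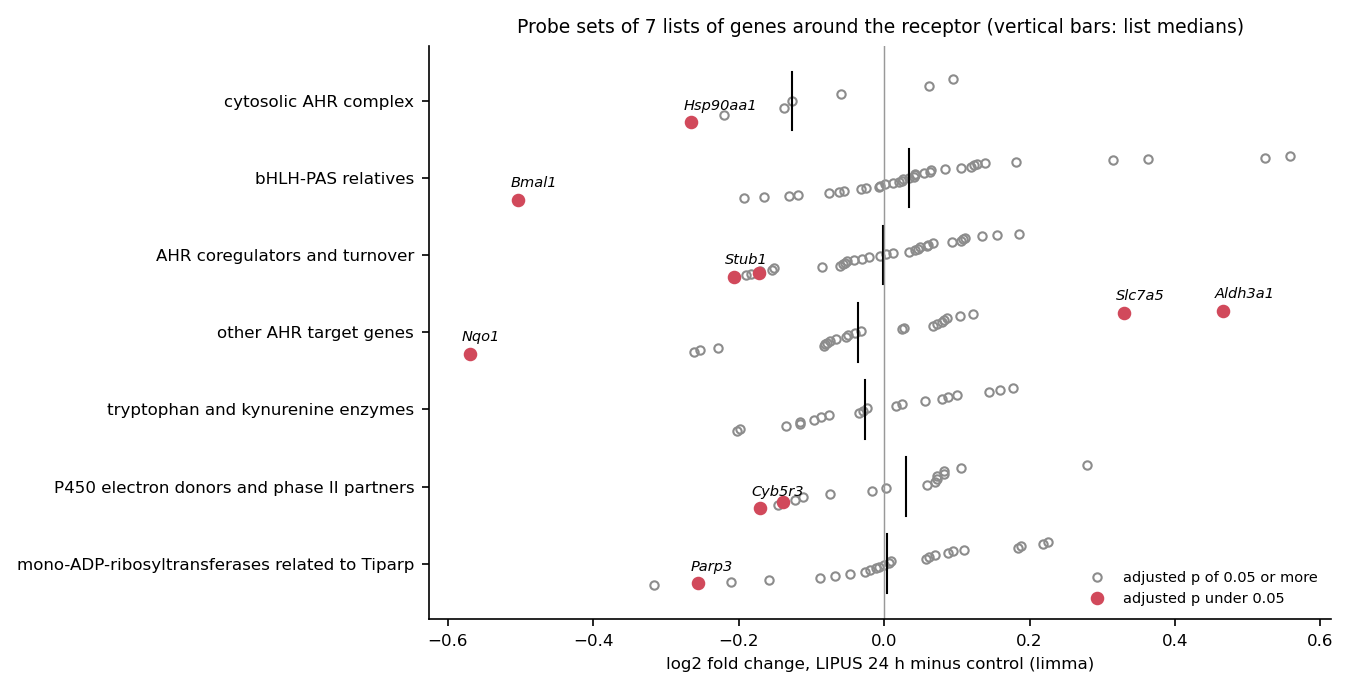
Fitted log2 difference, 24 h minus control (horizontal axis), of the 158 probe sets of 7 gene lists (rows), with filled points for an adjusted p under 0.05 and a bar at each list's median. The list medians run from -0.13 to 0.03, and the filled points are 2 above and 8 below 0. The lowest median, of the cytosolic complex, rests mostly on probe sets of *Hsp90aa1*.

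The samples were checked against markers of preosteoblasts and of other cells. Of 11 preosteoblast markers 8 were measured and 6 were in the upper 40% of probe sets by signal, with *Alpl* and *Ibsp* below that limit. Their mean log2 signal was 8.84 to 9.10 at 24 h, 8.72 to 9.002 at 6 h and 8.65 to 9.02 in control cells. Of the measured markers of macrophages (5), endothelium (5) and adipocytes (3), 0 were in the upper 40%. The mean of the 3 adipocyte markers was 2.93 to 3.41 at 24 h, 3.61 to 3.66 at 6 h and 3.53 to 3.56 in control cells, so that the 24 h arrays were lowest at a dim signal. The macrophage list ran from 3.55 to 3.88 at 24 h, 3.57 to 3.90 at 6 h and 3.57 to 3.88 in control cells, and the endothelial list from 3.69 to 3.76 at 24 h, 3.50 to 3.80 at 6 h and 3.61 to 3.88 in control cells. Of chondrocyte markers 1 of 5 was there, with a mean over the list of 5.11 to 5.36 at 24 h, 5.24 to 5.47 at 6 h and 5.35 to 5.49 in control cells. Of the 5 epithelial markers 2 were in the upper 40%, with *Krt8*, *Krt18* and *Cdh1* below it. The mean of the epithelial list was 5.66 to 6.11 at 24 h, 6.02 to 6.38 at 6 h and 6.05 to 6.44 in control cells, and the part of the epithelial, adipocyte and chondrocyte lists in the 24 h values of *Ahr* and its targets was not tested. In such bulk samples fewer cells of a type and less RNA per cell cannot be told apart.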

How the data were processed

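Transcript levels were measured on 9 arrays, 3 per group, each from 500 ng of RNA. The values analysed were log2 signals that the authors had made with RMA before they were deposited, and the version and settings of RMA are not given in the sources used here. They were not transformed further. Array medians were 4.89 to 5.15, and the number of arrays limits the precision.

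Probe sets were named through the platform annotation, updated by gene identifier (34945 with 1 symbol, 932 with several), and 64 controls of 45101 were left out. Limma 3.58.1 in R 4.3.3 was run (lmFit, eBayes, intensity trend) on all 9 arrays, with the replicate number as a fixed block and Benjamini-Hochberg adjustment over 45037 probe sets. This left 4 residual degrees of freedom, with 3.00 prior. The numbers were taken to pair the arrays because deviations of same-numbered arrays from their group means correlated at 0.701 to 0.933, and 9 of 9 arrays correlated best with their own number. Same-numbered arrays also shared identical values, at 24 h and in control for 1.26% to 48.4% of probe sets by experiment. The part of these identical values in the correlations was not tested. In experiment 1, which had the lowest share of them, the correlations were 0.701 to 0.851. Intervals are at 95% and are not adjusted for the number of probe sets.

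The members and gene lists were chosen with earlier results of these data known. Named were every probe set of the 6 genes, up to 4 genes of each list that passed at 24 h or else the 2 largest by value, and the 6 genes nearest to *Ahr* in profile. On data simulated for 24 h against control over 45037 probe sets, 15, 39, 48 and 50 of 50 changed by 1.2-fold, 1.5-fold, 2-fold and 3-fold were recovered, with 8 false calls. The simulated noise was independent and normal with equal spread on all arrays, and only probe sets above the median signal were changed. The identical values of experiments 2 and 3 were not simulated, so recovery and false calls in the real data, and among dim probe sets, were not tested. Alternatives were run for the block, the trend, quantile normalization, dim probe sets, the arrays fitted, each experiment left out, Student's t-test (named in the study's methods, run without pairing), a rule of 1.5-fold in each experiment, and the *Ahr* probe set used for likeness. Promoter windows were taken from a RefSeq table of build GRCm38.p6.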

Additional observations from a re-analysis of the deposited data

Results flagged for a closer look

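For 6 probe sets the response at 24 h differed from that at 6 h. *Cyp1b1* 1416612_at was below the control of the same experiment in every 24 h array and above it in every 6 h array, though the ranges of the groups overlapped. Its log2 difference between 24 h and 6 h was -0.42, and this sign difference was not tested independently of the choice of the genes, which used the 24 h arrays. The other 5 differed between 24 h and 6 h by limma over all probe sets, in each of 3 experiments in the same direction. The study chose *Nqo1* on these 24 h arrays, and the gene lists were made with earlier results of these data known. These calls are therefore not independent evidence. *Nqo1* (1423627_at) was lower at 24 h by a log2 difference of -0.63 (adjusted p = 0.00143) and *Bmal1* (1425099_a_at) by -0.49 (adjusted p = 0.0157). *Parp3* (1451969_s_at) had -0.26 (adjusted p = 0.00428) and *Cyb5r3* (1422185_a_at) -0.14 (adjusted p = 0.0393). *Slc7a5* (1418326_at) was higher at 24 h by 0.33 (adjusted p = 0.00156).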

How the results depend on the processing

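Without the replicate block, the count of list probe sets that passed at 24 h against control was 0 in place of 10, and at 24 h against 6 h 0 in place of 5 (5 and 3 at an unadjusted p under 0.05). With only the 6 arrays of the groups compared, both counts were 0 (29 and 34 unadjusted), as they were by Student's t-test, named in the study's methods and run here without pairing (3 and 4 unadjusted) and by the rule of 1.5-fold in each experiment. Over all 45037 probe sets, 5678 and 4695 had an unadjusted p under 0.05 in the main limma fit. Their number under the alternatives is not given here, so nothing is read from the unadjusted counts of the lists. Without the intensity trend the 24 h count against control was 5, where 522 of all probe sets passed. Among the upper 40% of probe sets by signal (84 of the lists) the counts were 16 and 13, with fewer probe sets tested. Of all 18014 probe sets in that upper 40%, 1914 and 1384 passed. Leaving out 1 experiment gave 0 to 14 and 0 to 15, with 0 without experiment 1 (22 and 23 unadjusted) or experiment 2 (23 and 21 unadjusted), where fewer samples were fitted. Over all probe sets at 24 h against control, 1229 passed, 1 without the block, and 0, 49 and 1439 without experiments 1, 2 and 3. The cause of the differences between experiments was not tested. Of the 15 probe sets of the 6 genes, 0 passed at 6 h under every setting but the one without experiment 3, where 1 did (range 0 to 1), and 38 of all probe sets did. The 6 h direction turned for 3 probe sets, *Cyp1b1* 1432081_at after quantile normalization (0.0022), *Arnt* 1421721_a_at without experiment 2 (0.016, range -0.054 to 0.016) and *Tiparp* 1452161_at without experiment 3 (-0.0070, range -0.0070 to 0.10). At 24 h against control, leaving out 1 experiment turned the direction of 5 member probe sets, *Cyp1b1* 1416613_at (-0.34 to 0.08) and 1432081_at (-0.11 to 0.17), *Cyp1a1* (-0.06 to 0.15), and *Arnt* 1419996_s_at (-0.02 to 0.08) and 1421721_a_at (-0.08 to 0.02). *Ahr* 1422631_at had log2 differences of 0.75 to 0.87 at 24 h when an experiment was left out, and of 0.78 after quantile normalization. Of the 8 list genes named as changed at 24 h, all lost the call without the block, with 6 arrays, without experiment 1 or 2 and by the t-test, and 3 (*Hsp90aa1*, *Stub1* and *Cyb5r3*) without the trend. Their differences stayed near the main values when an experiment was left out, at -0.63 to -0.53 for *Nqo1*, -0.58 to -0.43 for *Bmal1*, 0.37 to 0.52 for *Aldh3a1*, 0.32 to 0.33 for *Slc7a5*, -0.31 to -0.23 for *Hsp90aa1*, -0.26 to -0.24 for *Parp3*, -0.21 to -0.20 for *Stub1* and -0.19 to -0.14 for *Cyb5r3*. Dropping the block cannot change such a difference in this balanced design.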
